A study of Mus musculus with 36 samples.

Results

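Dietary restriction by 30% for 2 weeks (30%DR) was compared with unrestricted feeding on the same SDS chow, the standard diet of the animal facility, in the kidneys of healthy mice. All arrays labelled as 2-week restriction (5 mice, TS73, TS75, TS76, TS77 and TS78) were set against the SDS controls of the same cohort (3 mice, TS55, TS56 and TS58), that is 8 of the 36 arrays of the series, each with 45141 probe sets. All were C57BL/6 males aged 10 to 12 weeks at purchase, kept several to a cage and profiled without ischemia, with 1 Affymetrix HT MG-430 PM array for the total RNA of each mouse. The 30%DR mice received a reduced ration once a day at 4 pm, whereas the SDS mice ate ad libitum, so the amount of food and the hour of feeding cannot be told apart in this comparison. The hour at which the kidneys were taken is not stated in the labels or methods. The labels count 4 mice in the SDS group, of which 3 were analysed here, and the methods state that outlying arrays of this control group had been left out. The other 19 arrays of the cohort came from 5 mice on the Control diet and from mice given a modified diet for 3 days, 5 of them without protein, 4 without fat and 5 without carbohydrate (CHO-free). They entered the estimate of the spread and served as a scale for the levels.

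The liver and the kidney hold circadian clocks that follow feeding. In the core loop the activators BMAL1 (encoded by Arntl) and CLOCK or NPAS2 switch on the period and cryptochrome genes, whose proteins then repress these activators, while REV-ERB and ROR receptors set the level of Arntl. The loop drives the PAR bZIP factors Dbp, Tef and Hlf, which act on D-box sequences and are opposed there by Nfil3. Molecular chaperones, the other large group in these data, keep proteins folded in the cytosol under control of heat shock factor 1 and in the endoplasmic reticulum under control of the unfolded protein response.

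The deposited values are log2 signals, and the median per array lay between 3.71 and 3.74 in all 8 arrays. Across probe sets the arrays correlated at 0.988 to 0.996 within 30%DR, at 0.994 to 0.995 within SDS and at 0.989 to 0.993 between the groups. Mice TS73 and TS76 correlated at 0.996 with each other and at 0.988 to 0.992 with the other 3 restricted mice. The gap between the 3' and 5' probe sets for Gapdh on the array, which grows as RNA is broken down, was 1.04 and 1.15 in TS73 and TS76, against 2.22, 1.89 and 1.66 in TS75, TS77 and TS78. It averaged 1.59 ± 0.50 in 30%DR arrays and 1.27 ± 0.41 in SDS arrays (SD, n = 5 and 3), a difference of 0.32 that did not pass a 2-sided exact permutation test (p = 0.357, where 0.0357 is the smallest p possible). Transcripts of fat cells differed as well. The mean of Adipoq and Fabp4, a hormone and a lipid carrier of fat cells, was 8.36 to 8.93 in 30%DR arrays and 9.15, 10.15 and 10.10 in SDS arrays, so the groups did not overlap. In bulk tissue, fewer cells of a type and less RNA per cell cannot be told apart.

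In all, 415 probe sets were differentially expressed (DEPS) in 30%DR against SDS kidneys, 212 higher and 203 lower, which is 0.919% of all probe sets (0.47% higher and 0.45% lower). To count as a DEPS, a probe set had to differ by 1.5-fold or more with a Benjamini-Hochberg adjusted p under 5% in limma, the adjusted p that stands beside each gene. An unadjusted p under 0.05 was reached by 5600 probe sets. Of the DEPS, those with a single gene symbol belong to 262 genes, 113 of them with higher and 149 with lower probe sets. A further 123 have no single symbol and are not named, apart from those that the study listed for Rrm2 and Clic4. The median size of the log2 fold change of the 415 was 0.77, and 84 changed at least 2-fold, 32 higher and 52 lower. The 5 restricted mice lay all above or all below the 3 SDS mice for 398 of the 415, against 8.42% of all probe sets. By the brightest probe set of each of 17097 genes, 87 genes were higher (0.509%) and 102 lower (0.597%), with a median log2 fold change of -0.01. Of 160 genes with a DEPS and several probe sets, 121 had the same sign in all of them, and in 17 all were DEPS. A gene named with a single value can thus have other probe sets that did not pass, as Lpl, Cd55, Cp and Hbegf do.

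How firmly a DEPS stood was read from refits. Of the 415, 102 probe sets (50 higher and 52 lower, with 64 named genes among them and the rest without a single symbol) were DEPS in each of 10 refits, namely without each of the 8 mice in turn and with the Gapdh difference or the fat cell mean as a covariate. Among them were Dbp, Per1, Per3, Ciart, Tef, Nr1d2, Arntl, Npas2, Slc16a1, Nt5e, Dnajb1, Dnaja4, Bag3, Chordc1, Upp2, Slc6a20a, Gsta2, Pigr, Hsd11b1, Hsd3b3, Kcnt1 and Avpr1a. The count was 144 without SDS mouse TS56 and 241 without SDS mouse TS58, and also 241 with the fat cell mean as a covariate. The log2 fold change of all 415 kept its sign in each of these 3 refits. For the 398 whose groups do not overlap, leaving out a mouse cannot reverse the sign.

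The highest and the lowest log2 fold changes among named genes, those of Dbp and Arntl, belonged to the circadian clock. Of the activators 2 of 4 genes were lower, of the repressors 4 of 8 were higher, and of the PAR bZIP factors and Nfil3, 3 were higher and 1 lower in 30%DR kidneys. Arntl, which encodes BMAL1, was at 3.90, 3.35, 3.56, 3.07 and 3.5 in the restricted mice and at 6.36, 6.13 and 5.77 in the SDS mice. All restricted mice lay below the lowest of the other 19 arrays of the cohort, which spanned 4.79 to 6.14. The signal was thus 6.11-fold lower (-2.61 on the log2 scale, SE 0.22, adjusted p = 1.29e-07), and a dimmer probe set of Arntl fell by 0.84 (adjusted p = 0.00754). The restricted mice stood below or near the median of the array, so these differences and those of Npas2 are best read as minimum sizes. Npas2, the partner of BMAL1 that can replace CLOCK, was at 3.42, 3.49, 2.76, 3.16 and 3.14 in 30%DR kidneys and at 5.97, 5.33 and 5.25 in SDS kidneys (log2 fold change -2.32, SE 0.20, adjusted p = 1.79e-07). A further probe set of Npas2 lay near 3 in both groups and had -0.12. Clock itself had -0.67 (SE 0.19, adjusted p = 0.0675) in its brightest probe set, with the restricted mice at 6.55 to 7.29 and the SDS mice at 7.43 to 7.81, and -0.62 (adjusted p = 0.0171) in a second one. Its other probe sets had -0.55 and -0.53 and did not pass. Arntl2, a relative of Arntl, stayed near the floor of the array at 2.84 to 3.16 in 30%DR and 2.94 to 3.12 in SDS kidneys (0.02, SE 0.09).

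Of 8 genes of the period and cryptochrome arm, which close the loop by repressing BMAL1 and its partners, 4 were higher and 0 lower, with a median log2 fold change of 0.97. Per3 reached 7.22, 7.92, 7.43, 8.14 and 7.95 in the restricted mice, against 5.76, 5.79 and 6.08 in the SDS mice. No value overlapped, and the log2 fold change of 1.85 (SE 0.19, adjusted p = 3.84e-06) was matched by 1.62 and 1.40 in other probe sets of the gene, while a pair of dim ones had 0.10 and 0.09. Per1 was at 7.70, 8.30, 8.29, 8.19 and 8.83 after restriction and at 6.85, 6.96 and 7.11 on SDS (1.29, SE 0.24, adjusted p = 0.00437). Ciart, a repressor that binds BMAL1, was at 4.78, 4.64, 5.16, 5.18 and 6.16 in 30%DR mice and at 2.96, 3.56 and 3.67 in SDS mice (1.79, SE 0.24, adjusted p = 0.000156). All restricted mice exceeded the highest of the other 19 arrays, at 4.53. Cry2 rose by 0.68 (SE 0.18, adjusted p = 0.0488). Per2 stood higher in every restricted mouse, at 6.04 to 7.59 against 4.99, 5.91 and 6.03, but missed the threshold (1.27, SE 0.34, adjusted p = 0.0563). Cry1 had 0.10 (SE 0.27), Bhlhe40 0.16 and Bhlhe41 -0.14, and none of these passed. In the receptor arm Nr1d2, which encodes REV-ERB beta, was at 10.33, 10.17, 10.53, 10.23 and 10.06 in 30%DR kidneys, against 9.56, 9.28 and 9.34 in SDS kidneys (0.87, SE 0.13, adjusted p = 0.000631). Rora had 0.44 (SE 0.13, adjusted p = 0.0984) and Rorb 0.14.

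Dbp had the highest fold change of all named genes. It was at 8.49, 8.92, 8.49, 9.12 and 9.13 in the restricted mice and at 5.24, 5.78 and 6.34 in the SDS mice, 8.22-fold higher (3.04 on the log2 scale, SE 0.32, adjusted p = 3.84e-06). The restricted mice also lay above all of the other 19 arrays (5.68 to 8.07, median 7.21). Tef, at 10.10 to 10.78 against 9.23 to 9.64, rose by 1.02 (SE 0.18, adjusted p = 0.00369), and Hlf, at 8.34 to 9.09 against 7.92 to 8.06, by 0.68 (SE 0.17, adjusted p = 0.0337). Nfil3, the repressor of the same sites, was at 3.30, 4.15, 3.00, 3.17 and 3.60 after 30%DR and at 4.61, 4.91 and 5.52 on SDS (-1.57, SE 0.39, adjusted p = 0.0348). All 4 genes of this arm thus passed the test, 3 higher and 1 lower. The clock kinases and ubiquitin ligases did not, with 0 of 5 called. Usp2, a deubiquitinase whose RNA cycles in many tissues, had 0.68 (SE 0.24, adjusted p = 0.194). Of 13 other genes known to follow the clock in kidney or in many mouse tissues, Tspan4 rose by 0.80 (SE 0.11, adjusted p = 0.000275), Leo1 fell by 0.81 (adjusted p = 0.00655) and 11 did not pass, among them the sodium transport genes Sgk1 (-0.15), Scnn1a (0.10) and Slc9a3 (0.37). Over the first 4 clock lists, 8 of 19 genes were higher and 3 lower, and counts made without each of the 8 mice in turn gave 6 to 8 higher and 2 to 3 lower. Cirbp, the cold-inducible RNA-binding protein that acts on clock transcripts, was at 7.83, 7.28, 7.96, 7.56 and 7.64 in 30%DR mice and at 6.43, 6.58 and 6.47 in SDS mice (1.16, SE 0.28, adjusted p = 0.0304), while its relative Rbm3 had -0.55 (SE 0.23, adjusted p = 0.278).

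**Figure D1:**
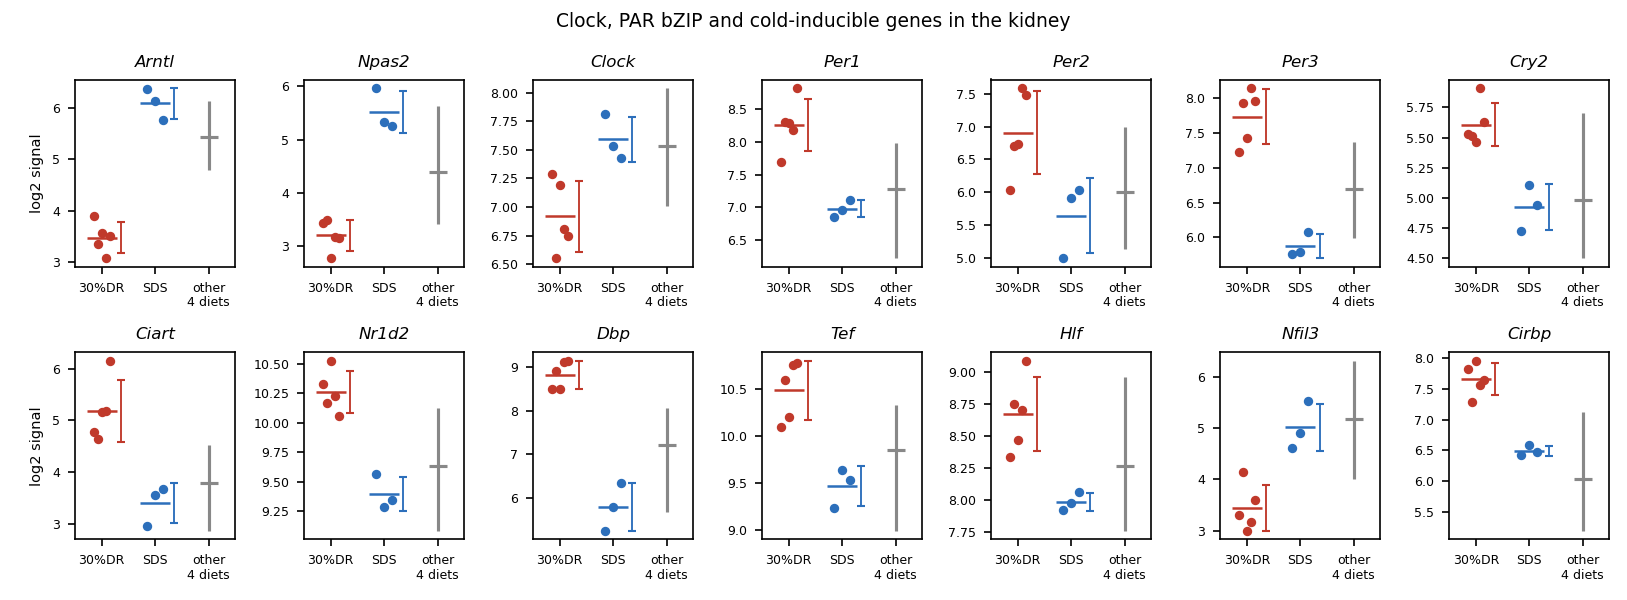
Log2 signal of 14 clock, PAR bZIP and cold-inducible genes in each 30%DR mouse (red, n = 5) and SDS mouse (blue, n = 3), with a line at the mean and a bar for the SD beside it. The grey bar spans the lowest to the highest of the other 19 arrays of the cohort with a mark at the median, and Arntl at 3.07 to 3.90 in 30%DR kidneys lies below that whole span.

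The promoters of these genes show which known clock sequences lie close to the start sites. RefSeq windows of 300 bases (250 before and 50 after the start site, GRCm38.p6, some genes with several) were searched on both strands for the E-box CACGTG, which BMAL1 and its partners bind, the D-box TTATGTAA or TTACGTAA of the PAR bZIP factors and the ROR element TAGGTCA. Of the 11 clock and PAR bZIP genes with a DEPS as their brightest probe set, 3 had an E-box, against 8.09% of 27025 genes, 1 had a D-box (1.23%) and 2 a ROR element (2.97%). The other 8 genes of these lists were not searched, so the shares cannot tell changed clock genes from clock genes at large. No match says only that these letters are absent from this window, as for Dbp, whose E-boxes are known to lie within the gene. For 5 of the genes a stretch upstream of a start site that holds matches is given 5′ to 3′ on the strand of the gene, with the motif in capitals. They are those of Ciart (chr3:95882257-95882354, minus strand, 3 E-boxes), Per1 (chr11:69098773-69098798, plus strand), Tef (chr15:81802536-81802561, plus strand, 1 of 2 start sites, the other of which has an E-box of its own that is not shown), Per3 (chr4:151044806-151044880, minus strand, 2 D-boxes) and Nfil3 (chr13:52981040-52981061, minus strand, the ROR element read on the other strand).
Ciart: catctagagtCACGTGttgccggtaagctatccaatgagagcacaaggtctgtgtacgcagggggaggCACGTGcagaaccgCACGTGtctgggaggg
Per1: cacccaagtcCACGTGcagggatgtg
Tef: gctgtggctcCACGTGctgcagctgg
Per3: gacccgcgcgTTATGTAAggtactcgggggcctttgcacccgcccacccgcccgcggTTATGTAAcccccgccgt
Nfil3: cgctcggaacTGACCTActaac

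A minority of the cytosolic chaperone genes passed the test, all of them lower in 30%DR kidneys. Of 40 genes of the HSP70, HSP90 and small heat shock protein lists, 0 were higher, 11 lower and 29 did not pass, with a median log2 fold change of -0.19 against -0.01 over all genes. Hspa1b, the stress-inducible HSP70, was at 9.72, 9.28, 9.36, 9.22 and 9.04 in the restricted mice and at 10.86, 11.07 and 10.83 in the SDS mice (-1.59, SE 0.39, adjusted p = 0.0314). Its other probe sets fell by 2.08 and 2.15, and because its copy Hspa1a is nearly identical, the 2 genes cannot be told apart here. Against the other 19 arrays, which ran from 8.21 to 10.94 with a median of 9.34, the restricted mice stood at the middle and the SDS mice at the top. Dnajb1, the co-chaperone that starts the HSP70 cycle, was at 7.99, 8.57, 8.19, 8.66 and 8.48 after 30%DR and at 9.55, 9.67 and 9.71 on SDS (-1.27, SE 0.20, adjusted p = 0.000965). The 3 SDS mice lay above all of the other 19 arrays, whose highest was 9.45. Dnaja4 fell by 1.16 (SE 0.18, adjusted p = 0.00077), Hsph1, a nucleotide exchange factor of HSP70, by 0.94 (adjusted p = 0.0132), and Dnaja1 by 0.80 (adjusted p = 0.00659). Bag3, which links HSP70 to autophagy, was at 5.93 to 6.13 in 30%DR kidneys and at 6.84 to 7.03 in SDS kidneys (-0.91, adjusted p = 0.00329). The constitutive members Hspa8 (-0.13), Hspa9 of the mitochondria (-0.18) and Dnaja2 (-0.03) did not pass.

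In the HSP90 machinery 0 of 11 genes were higher and 4 lower, with a median of -0.63. Ahsa2, a relative of the HSP90 activator AHA1, was at 7.05, 7.41, 6.93, 7.43 and 7.15 in 30%DR mice and at 8.43, 8.55 and 8.33 in SDS mice (-1.24, SE 0.19, adjusted p = 0.000606), with all restricted mice below the lowest of the other 19 arrays (7.52). Chordc1, an HSP90 co-chaperone, was at 7.76, 7.96, 7.97, 8.01 and 7.75 against 8.88, 8.95 and 8.88 (-1.01, SE 0.17, adjusted p = 0.00164). Stip1, which hands clients from HSP70 to HSP90, fell by 0.85 and Ahsa1 by 0.83. Hsp90aa1, the inducible HSP90, was lower in each restricted mouse, at 8.58 to 9.76 against 10.19 to 10.23, but missed the threshold (-1.06, SE 0.29, adjusted p = 0.0601). Among 7 small heat shock proteins Hspb1 fell, with 6.96, 6.48, 6.60, 6.96 and 6.73 after restriction and 7.80, 7.90 and 8.37 on SDS (-1.28, SE 0.31, adjusted p = 0.0339). Cryab had 0.26 and Hspb8 -0.16. None of 9 chaperonin subunits passed (median -0.17), nor did the heat shock factor genes Hsf2 (0.02) and Hsf4 (0.16), while Hsf1 has no single-symbol probe set here. The count of lower cytosolic chaperones was 5 without SDS mouse TS58, 6 without TS56, 7 without TS55 and 6 with the fat cell mean as a covariate, and 12 with the Gapdh covariate.

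**Figure D2:**
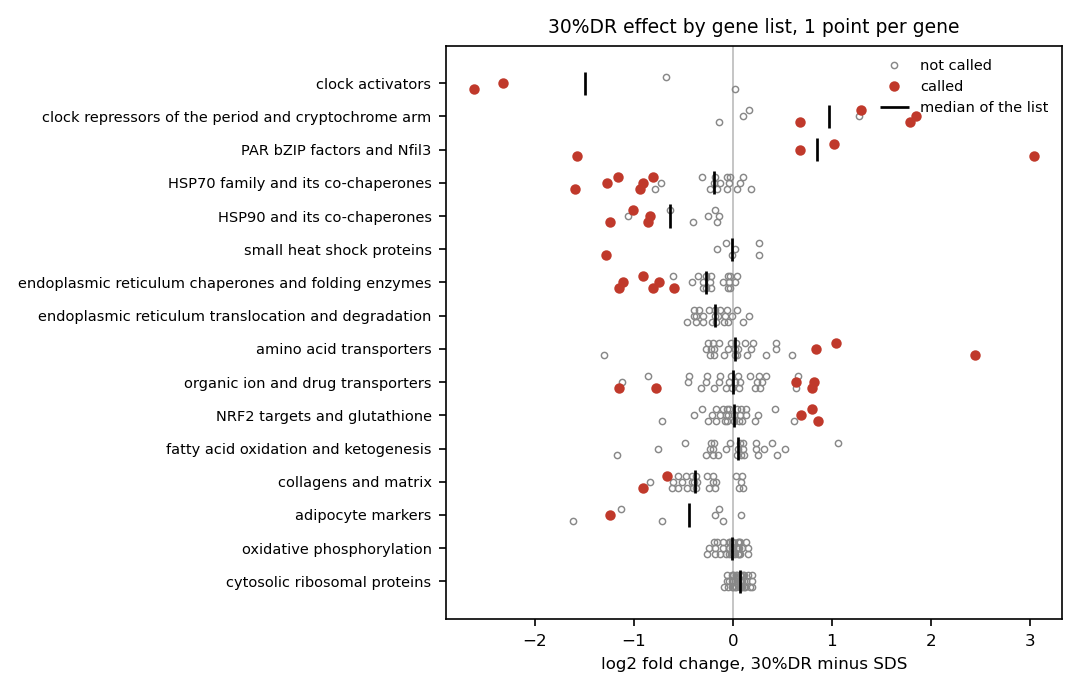
Log2 fold change of 30%DR over SDS for the genes of 16 lists, 1 point per gene by its brightest probe set, with DEPS in red, other genes as open circles and a black line at the median of the list. The HSP90 list has its median at -0.63 and no gene above 0, while the lists of oxidative phosphorylation and cytosolic ribosomal proteins stay close to 0.

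Heat shock factor 1 binds repeats of the unit GAA in alternating orientation. A pair of such units in either order (GAANNTTC or TTCNNGAA) was found in the windows of 7 of the 11 chaperone genes with lower brightest probe sets, against 17.0% of all 27025 genes. The other 29 genes of these lists were not searched, so the share cannot tell lowered chaperones from chaperones at large. The genes with a match were Hspa1b, Hsph1, Dnaja1, Dnaja4, Bag3, Chordc1 and Hspb1. Those of Hspa1b (chr17:34959325-34959352, minus strand), Hspb1 (chr5:135887792-135887839, plus strand), Dnaja4 (chr9:54699459-54699524, plus strand) and Dnaja1 (chr4:40722334-40722361, plus strand) are shown as examples with all their pairs upstream of the start site, with each pair in capitals. Hsph1 and Chordc1 have pairs on both sides of it and Bag3 has 1 after it.
Hspa1b: gaaactgctgGAAGATTCctggccccaa
Hspb1: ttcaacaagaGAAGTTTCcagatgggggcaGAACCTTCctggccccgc
Dnaja4: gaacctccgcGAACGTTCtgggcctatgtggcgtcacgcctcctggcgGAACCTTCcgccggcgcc
Dnaja1: aaagcctctaGAAAATTCtacgaggctc

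Several chaperones of the endoplasmic reticulum were lower as well. Of 24 genes for folding there, 0 were higher, 6 lower and 18 did not pass, with a median of -0.27. Hspa5, which encodes the main chaperone BiP, was at 9.62, 9.90, 9.90, 9.91 and 9.81 in the restricted mice and at 10.51, 10.60 and 10.77 in the SDS mice (-0.80, SE 0.17, adjusted p = 0.0112), and a second probe set fell by 1.01. Manf, a secreted factor that the unfolded protein response induces, was at 8.18, 7.71, 8.22, 8.15 and 8.01 against 8.90, 9.08 and 9.62 (-1.15, SE 0.27, adjusted p = 0.0259). Creld2 fell by 1.11, Sdf2l1 by 0.91, the disulfide isomerase Pdia6 by 0.74 and Dnajb11 by 0.59. The abundant folding proteins P4hb (-0.03), Calr (-0.30) and Hsp90b1 (-0.30) did not pass. Among 9 factors of the response, Ddit3, which encodes CHOP, fell by 0.87 (adjusted p = 0.0215), whereas Xbp1 had -0.09 and Atf6 -0.15. None of 23 genes of translocation and degradation in this compartment passed (median -0.18), and none of 22 targets of ATF4 (-0.05). This count depended on single mice, since 0 of the 24 folding genes were DEPS without SDS mouse TS56, 1 without TS58, 3 without 30%DR mouse TS76 and 1 with the fat cell mean as a covariate. Serpinh1, the collagen chaperone of the same compartment, fell by 0.91 in its brightest probe set and by 1.04 in the other (adjusted p = 0.0114 and 0.00105), and a median of -0.38 was found over 28 collagen and matrix genes, of which 2 passed, Serpinh1 and Emilin1 (-0.66).

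Stress response genes that are switched on within minutes to hours were lower in restricted than in SDS mice where they passed. Of 27 immediate early genes 0 were higher and 2 lower. Atf3 was at 3.49, 3.65, 3.39, 3.82 and 3.75 after 30%DR and at 4.07, 4.70 and 5.24 on SDS (-1.05, SE 0.19, adjusted p = 0.00344). Egr2 fell by 0.75 (SE 0.20, adjusted p = 0.049), with restricted mice at 2.74 to 3.17 and SDS mice at 2.98, 3.69 and 4.33, so that TS77 overlapped. Hbegf, a growth factor made by stressed tubules, was at 6.11, 6.18, 6.15, 6.35 and 6.48 against 6.62, 7.27 and 8.0 (-1.04, SE 0.21, adjusted p = 0.00991). In all 3 genes the SDS mice TS56 and TS58 were the highest and the restricted mice lay within the range of the other 19 arrays (medians of 3.75 for Atf3, 2.86 for Egr2 and 6.39 for Hbegf), except TS76 just below it for Atf3. TS56 and TS58 also had the highest mean of Adipoq and Fabp4 (10.15 and 10.10, against 9.15 in TS55). With that mean as a covariate Atf3 still passed (-0.98, adjusted p = 0.0265), whereas Egr2 (-0.65, adjusted p = 0.22) and Hbegf (-0.87, adjusted p = 0.0845) did not, and without TS58 none of the 3 passed (adjusted p = 0.0562 for Atf3, 0.425 for Egr2 and 0.139 for Hbegf). Fos (0.14), Egr1 (-0.06) and Jun (-0.43) did not pass. Cdkn1a, the cell cycle inhibitor p21, fell by 0.83 (SE 0.19, adjusted p = 0.0246).

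Where the 2 groups stood on the scale of the other 19 arrays differed between these gene groups. For the 11 clock and PAR bZIP genes, the mean of the 30%DR mice was farther from the median of the 19 arrays than the mean of the SDS mice in 11. For the 11 cytosolic chaperones this held for 6, and for the other 5 the SDS mean was farther. Over the 415 DEPS it was 329 with the 30%DR mean farther and 86 with the SDS mean farther (183 and 29 of those higher, 146 and 57 of those lower). All 5 restricted mice lay outside the range of the 19 arrays for 44 DEPS, all 3 SDS mice for 12. Over all 45141 probe sets the 30%DR mean was farther for 24400 and the SDS mean for 20741. There, all restricted mice lay outside the range for 112 probe sets and all SDS mice for 97. These counts describe where the groups stood and carry no test, since the probe sets were chosen for the difference between the groups.

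**Figure D3:**
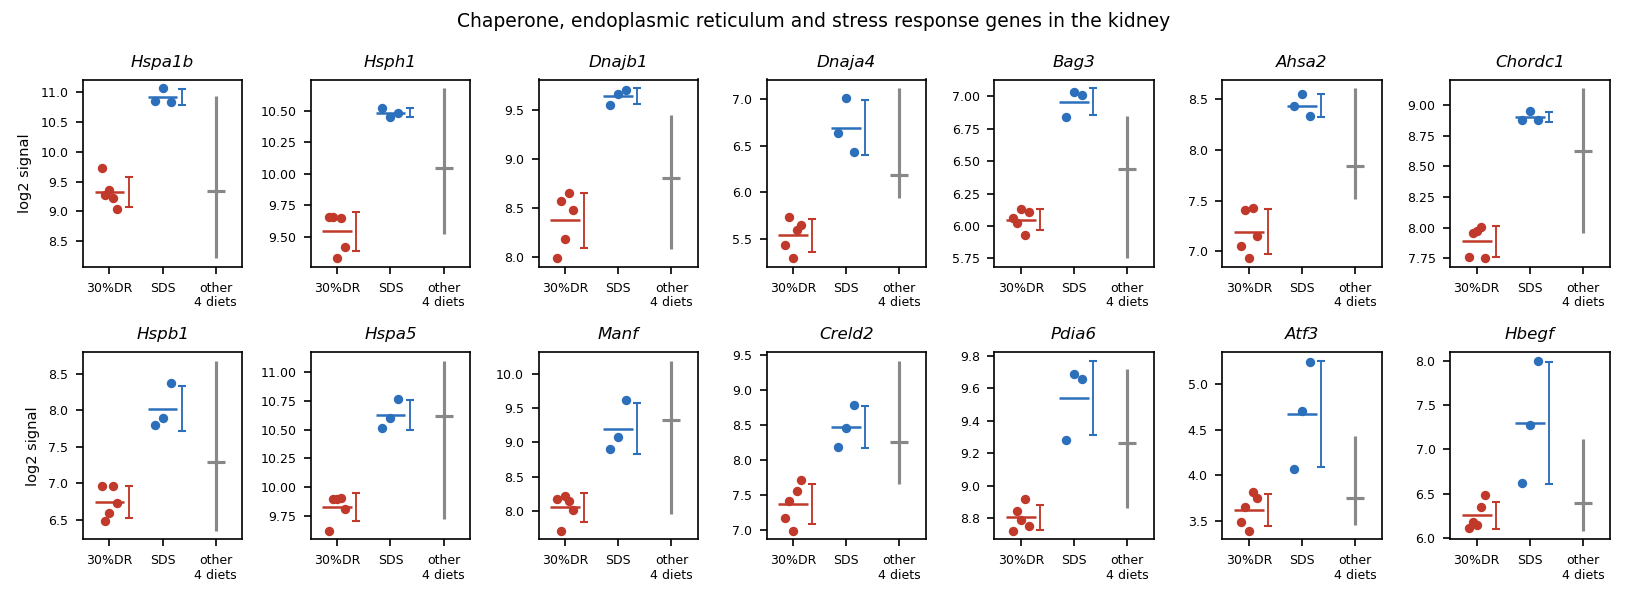
Log2 signal of 14 chaperone, endoplasmic reticulum and stress response genes in each 30%DR mouse (red, n = 5) and SDS mouse (blue, n = 3), with lines at the means and bars for the SD. Grey bars span the other 19 arrays with a mark at the median, and for Dnajb1 the SDS mice at 9.55 to 9.71 lie above that span.

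Among 28 amino acid transporters 3 were higher, 0 lower and 25 did not pass, with a median of 0.02. Slc6a19, which takes up neutral amino acids from the filtrate as B0AT1, was at 11.03, 10.64, 10.91, 10.73 and 10.20 in the restricted mice and at 9.81, 9.67 and 9.49 in the SDS mice (1.04, SE 0.21, adjusted p = 0.00737). Slc6a20a, a carrier of imino acids such as proline, was at 7.16, 7.62, 7.45, 7.76 and 8.06 against 6.70, 6.86 and 6.77 (0.84, SE 0.15, adjusted p = 0.00369). Slc7a12, a light chain of amino acid exchangers, had the second highest log2 fold change among named genes with 2.44 (SE 0.62, adjusted p = 0.0403), yet its values of 9.85, 8.30, 9.64, 6.12 and 7.65 overlapped with 5.26, 5.24 and 7.10 on SDS, since TS77 lay below SDS mouse TS58. Slc38a3, the glutamine transporter, had 0.60 and did not pass (adjusted p = 0.307), and Slc7a9, of the cystine transporter, had 0.44 (adjusted p = 0.042), short of 1.5-fold. Slc36a2 was lower in the mean (-1.30, SE 0.35, adjusted p = 0.0601), with overlapping groups.

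Slc16a1, the monocarboxylate transporter MCT1 for lactate and ketone bodies, was lower in every restricted mouse. It was at 7.84, 7.38, 7.13, 6.96 and 6.56 after 30%DR and at 8.91, 8.91 and 8.52 on SDS (-1.60, SE 0.21, adjusted p = 0.000117), a 3.04-fold lower signal. Of 32 organic ion and drug transporters, 3 were higher and 2 lower. The exporters Abcb1b, Abcc4 and Abcc6 rose by 0.82, 0.80 and 0.64. The organic anion carriers Slc22a26 and Slc22a19 fell by 1.15 (adjusted p = 0.0321) and 0.77 (adjusted p = 0.00369). Slc22a26 was at 4.80, 5.34, 4.61, 6.09 and 5.32 in 30%DR kidneys and 6.02, 6.55 and 6.57 in SDS kidneys, so that TS77 reached into the SDS range. Slc22a7 was uneven among restricted mice, with TS73 at 8.07 and TS76 at 9.22, against 10.12 to 10.31 in the other 3 and 10.35 to 10.94 in SDS mice (-1.12, adjusted p = 0.0871). None of 28 genes of sodium and water transport passed (median 0.12), but Avpr1a, a vasopressin receptor, fell by 1.09 (SE 0.18, adjusted p = 0.00126), with 3.48 to 3.70 in restricted and 4.41 to 4.91 in SDS mice. The sodium-activated potassium channel gene Kcnt1 was at 4.54 to 4.81 against 3.43 to 3.74 (1.14, SE 0.12, adjusted p = 4.75e-06), above all of the other 19 arrays (up to 4.12).

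In nucleotide metabolism 2 enzymes moved in opposite directions. Nt5e, the ecto-5'-nucleotidase CD73 that makes adenosine outside the cell, was at 8.99, 8.71, 9.05, 8.44 and 8.47 in 30%DR mice and at 10.36, 10.36 and 10.39 in SDS mice (-1.63, SE 0.21, adjusted p = 0.0001). A second probe set fell by 1.35 (adjusted p = 0.014), and 15 other genes of purine breakdown did not pass. Upp2, which cleaves uridine, was at 7.96, 8.01, 7.71, 7.74 and 8.33 against 6.77, 6.74 and 6.38 (1.32, SE 0.22, adjusted p = 0.00218). Nmrk1, a kinase of the NAD salvage route, rose by 1.29 in 1 of its probe sets (adjusted p = 0.0182), which is not the brightest, and none of 10 genes of sirtuins and NAD synthesis passed by the brightest one.

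The next metabolic lists held at most 1 DEPS each by the brightest probe set. Over all genes 0.509% were higher and 0.597% lower, so counts this small say little about a list. Of 37 genes of amino acid breakdown, Hpd of the tyrosine pathway rose by 1.07 (SE 0.24, adjusted p = 0.0218), with restricted mice at 7.84 to 8.98 and SDS mice at 7.31 to 7.80, and 36 did not pass. Dhtkd1, of lysine breakdown but counted with the tricarboxylic acid cycle, rose by 0.79 (adjusted p = 0.00369). Fatty acid oxidation and ketogenesis held 27 genes, of which 0 passed (median 0.05), with Cpt1a at 0.23 and Ppara at 0.45. Fabp1, the fatty acid binding protein of liver and proximal tubule, was highest in TS73 and TS76 (5.03 and 4.48, against 3.44 to 3.5 in the other 3 and 2.88 to 2.99 in SDS mice) and did not pass (1.06, SE 0.59). Of 19 genes of fat synthesis 0 passed by their brightest probe set, while other probe sets of Me1 (-0.66) and Thrsp (-1.50) did. For Thrsp the groups overlapped, and the highest values of this probe set, 7.53 and 7.07, were those of TS56 and TS58, the SDS mice with the highest mean of Adipoq and Fabp4, and with that mean as a covariate it did not pass (-0.75, adjusted p = 0.269). In the cholesterol list Idi1 fell by 0.84 (adjusted p = 0.00808) and 18 genes did not pass. Pdk3, a kinase that blocks pyruvate dehydrogenase, fell by 0.72 (adjusted p = 0.0354). Its relative Pdk4 was at 6.99, 7.06, 7.64, 6.76 and 6.76 after restriction and at 8.08, 8.34 and 8.21 on SDS, which did not pass in the model of 27 arrays (-1.17, SE 0.34, adjusted p = 0.0865) and passed in a model of the 8 arrays alone (SE 0.18, adjusted p = 0.0163). The same held for Bcl6, a repressor that FOXO factors induce, at 5.94 to 6.60 against 8.11 to 8.79 (-2.11, with SE 0.56 and adjusted p = 0.052 in 27 arrays, and SE 0.18 and adjusted p = 0.000549 in 8). None of the other 21 genes of the FOXO list and none of 20 of the insulin and IGF axis passed, with Igfbp1 at 6.91 to 9.08 against 5.87 to 7.11 (1.47, SE 0.49, adjusted p = 0.148).

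In steroid and drug metabolism Hsd3b3, a 3-beta-hydroxysteroid dehydrogenase, was at 7.93, 8.53, 7.84, 8.44 and 8.25 in restricted mice and at 6.40, 6.83 and 6.98 in SDS mice (1.46, SE 0.28, adjusted p = 0.00595). A brighter probe set had 0.08, so the result rests on 1 of 2 probe sets. Akr1c18, which inactivates progesterone, fell by 1.32 (SE 0.26, adjusted p = 0.00682), with 7.29 to 9.01 after 30%DR and 9.13 to 9.68 on SDS. Hsd11b1, which regenerates active glucocorticoid, was at 10.49, 10.55, 10.60, 10.89 and 10.35 against 11.59, 11.68 and 11.11 (-0.88, SE 0.14, adjusted p = 0.00105). Among 19 genes that glucocorticoids induce, 1 was higher (Per1) and 2 lower (Hsd11b1 and Cdkn1a), while Fkbp5 had -0.40 and Tsc22d3 0.35 and did not pass. Of 31 NRF2 targets and glutathione genes 3 were higher and 0 lower. Gsta2, a glutathione transferase, was at 11.30 to 11.48 against 10.26 to 10.86 (0.86, SE 0.14, adjusted p = 0.00124), Abcc4 rose by 0.80 and Nqo1 by 0.69, whereas Gclc (-0.39) and Hmox1 (-0.71) did not pass. The cytochrome P450 genes Cyp2d9 and Cyp2d22 rose by 0.86 and 0.60. Genes of this kind share sequence with close relatives, and a probe set may read more than 1 of them. Odc1, the first enzyme of polyamine synthesis, fell by 0.92 (adjusted p = 0.0297) and Gusb by 0.84, both of which androgens raise in mouse kidney, and the other 15 genes of that list did not pass.

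Some strong changes fell outside these lists. Lpl, which frees fatty acids from lipoproteins, fell by 1.07 (SE 0.21, adjusted p = 0.00634). The adipocyte gene Adig fell by 1.24 and Prkar2b, a subunit of protein kinase A, fell by 1.25. Of 8 fat cell markers Adig alone passed, and the median was -0.44. Adipoq, their defining marker, was at 6.03, 6.83, 6.10, 6.02 and 6.99 in restricted mice and at 6.97, 8.58 and 8.48 in SDS mice. With the mean of Adipoq and Fabp4 as a covariate Lpl still passed (-1.04, adjusted p = 0.0329), whereas Adig (-0.70, adjusted p = 0.141) and Prkar2b (-0.88, adjusted p = 0.0628) did not. The histone genes H3c14 and H3c15 fell by 1.46 and 1.29 (adjusted p = 0.000383 and 0.00526), though a second probe set of H3c14 missed the threshold with -0.78 and histone H3 copies share sequence. Ppard, a lipid-sensing nuclear receptor, fell by 1.08 (SE 0.14, adjusted p = 0.000108) in 1 of its 2 probe sets, and it was dim in both groups (2.96 to 3.33 against 4.16 to 4.43). Ddit4l, an inhibitor of mTOR, fell by 1.07 (adjusted p = 0.00124), Cd55, which protects cells from complement, by 1.24 and Itga6, a laminin receptor subunit, by 1.01. Pigr, which carries antibodies across epithelia, rose by 0.89 and 0.93 in its probe sets (adjusted p = 0.00829 and 0.00158) and Cp, which encodes ceruloplasmin, by 0.96 (adjusted p = 0.0114). Sphk2, a sphingosine kinase, rose by 1.27 in 1 of its 2 probe sets. It overlaps Dbp on chromosome 7 (45709463-45718002 against 45705100-45710203), and whether its probe set reads Dbp RNA was not tested. The activin receptor Acvr2b rose by 1.17 in its brightest probe set, the polycomb gene Cbx7 by 0.96 and the RNA-binding protein gene Cpeb3 by 0.88 and 1.04 in a pair of probe sets. Of 21 genes of tubular injury and the acute phase 2 were higher (Cp and Pigr) and 1 lower (Cdkn1a), while Havcr1 (KIM-1) had -0.70, Lcn2 (NGAL) -0.60 and neither passed.

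Large groups of housekeeping function held 0 DEPS, where 0.509% of all genes were higher and 0.597% lower. At that share, 0 in a list of this size says little about the group. Of 35 genes of oxidative phosphorylation, 37 of cytosolic ribosomal proteins, 36 of the proteasome, 25 of autophagy and lysosome and 12 of antioxidant enzymes, 0 were DEPS, with medians of -0.01, 0.07, -0.09, -0.02 and -0.07. Of 35 cell cycle genes 2 were lower, Cdk1 (-0.87, adjusted p = 0.0189) and Cdkn1a. Kidney markers were high, as 9 proximal tubule markers averaged 11.21 to 11.44 in 30%DR and 11.24 to 11.40 in SDS kidneys, and none passed by its brightest probe set, though a second one of Slc22a8, an organic anion carrier, rose by 0.76 (adjusted p = 0.0362). Pvalb of the distal convoluted tubule fell by 0.83 (adjusted p = 0.0256). None of the markers of podocytes, thick ascending limb, principal, intercalated or endothelial cells, fibroblasts, macrophages, other leukocytes or red blood cells passed. Those of adrenal gland and skeletal muscle had medians of 2.80 and 2.83 in 30%DR kidneys and 2.78 and 2.89 in SDS kidneys, near the floor.

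To learn which of these changes differed from those of another restriction, the 30%DR effect was set against that of 3 days without protein, measured against its own Control mice (n = 5 each). The contrasts share no array. The 2 diets also differ in duration, feeding schedule and base diet, and these cannot be told apart in a difference between the effects. Of the 415 DEPS of 30%DR, 73 (17.6%) were DEPS on the protein-free diet, against 333 of all 45141 probe sets. They make up 21.9% of those 333, and 71 of the 73 had the same direction. On the protein-free diet 377 of the 415 had the sign of the 30%DR effect and 378 a smaller change. The 415 were chosen for their 30%DR effect, so these counts carry no test. The difference between the effects itself passed for 10 probe sets, 0.0222% of all, 2 higher and 8 lower after 30%DR, with 2776 at an unadjusted p under 0.05. Pdk4 stood out, with -1.17 after 30%DR and 1.60 on the protein-free diet, a difference of -2.77 (adjusted p = 0.0142). Slc22a26 had -1.15 and -1.37 in its probe sets after 30%DR and 1.45 and 1.49 on the protein-free diet, differences of -2.60 and -2.85 (adjusted p = 0.00375 for both). Slc22a19 had -0.77 and 0.42 (difference -1.19, adjusted p = 0.00855). Arntl was the clock gene that differed, with -2.61 after 30%DR and -0.69 on the protein-free diet (difference -1.92, SE 0.29, adjusted p = 0.00564). Kcnt1 had 1.14 and 0.24 (0.89, adjusted p = 0.0394) and Proz, a vitamin K-dependent plasma protein, 0.25 and -0.90 (1.14, adjusted p = 0.0375). The other 3 probe sets have no symbol here. The count of 10 was 4 without SDS mouse TS56, 6 without 30%DR mouse TS76 or TS78 or 1 of the Control mice, and 19 without 30%DR mouse TS73. For Dbp (3.04 and 1.44), Per3 (1.85 and 0.77), Per1 (1.29 and 0.09), Ciart (1.79 and 0.32) and Npas2 (-2.32 and -1.21) the difference missed the threshold, with adjusted p from 0.114 for Ciart to 0.271 for Dbp. The chaperone Hspa1b had -1.59 and -0.21 (adjusted p = 0.629) and Dnajb1 -1.27 and -0.53 (adjusted p = 0.595). Hpd had 1.07 and 1.32 and Cp 0.96 and 1.47, both DEPS on each diet.

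**Figure D4:**
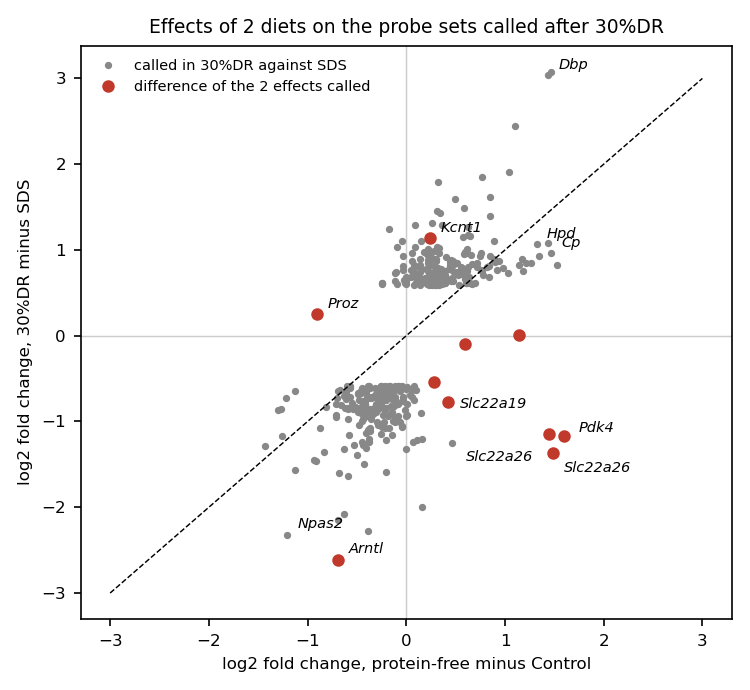
Log2 fold change of 30%DR over SDS (vertical) against that of the protein-free over the Control diet (horizontal) for the 415 probe sets called after 30%DR (grey) and the 10 whose difference between the diets was called (red), with a dashed line where both are equal. Pdk4 and Slc22a26 lie at the lower right, lower after 30%DR and higher on the protein-free diet, while Arntl lies at -2.61 and -0.69.

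The study had listed genes whose probe sets were DEPS in common after its protective diets, 30%DR among them. Of these genes 34 can be followed by symbol, and the brightest probe set of a gene need not be the one listed. As they were chosen on these same mice, their counts are no independent evidence. In 30%DR against SDS kidneys 13 were higher, 9 lower and 12 did not pass by their brightest probe set, with Dbp, Per3, Hpd, Cbx7 and Cp at the top and Nt5e, Slc16a1, Dnaja4 and Ppard at the bottom. Among the 12, other probe sets, those that the study listed, passed for Marchf7 (0.80), Pdxk (0.77), Sbf2 (0.71), Asb13 (-0.63), Zfp24 (-0.72), Gna14 (-0.80), Cacul1 (-0.86) and Tspan13 (-0.95). Rrm2, Id3, Pdk1 and Clic4 had none among the probe sets with a single symbol. The probe sets that the study listed for Rrm2 and Clic4 have no single symbol here, and both were DEPS (-0.85 and -0.70, adjusted p = 0.0304 and 0.0476). Of 7 transcription factors and regulators the study discusses, 0 passed, with Nfe2l2 at -0.21, Foxo3 at 0.25, Hnf4a at -0.09 and Mtor at 0.05. The study predicted the activity of factors such as FOXO3 and HNF4A from changes of other genes, which is a different measure from their own RNA. For 30%DR alone its scores for FOXO3 and HNF4A stayed within its cutoff. Those that passed the cutoff were heat shock factor 1, predicted as inhibited, and HMGA1, predicted as activated. By PCR it reported Foxo1 higher after 30%DR, and Foxo3 and Hnf4a not significantly changed. The Foxo1 probe set lay near the floor here, at 2.64 in 30%DR and 2.66 in SDS kidneys.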

How the data were processed

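The deposited series matrix holds log2 expression values, the result of RMA as run by the authors, who normalized the cohort of 27 arrays apart from the fasting arrays (not used). RMA corrects background, equalizes the distributions of arrays and summarizes probes, and no version of it is stated in the labels or methods. Values were used as deposited. Symbols came from the platform annotation, in which 28898 of 45141 probe sets have 1 symbol, 551 several and 15692 none, and coordinates and promoter sequences from RefSeq (GRCm38.p6). Differences were tested with limma 3.58.1 in R 4.3.3 on all 27 arrays (lmFit, eBayes, 6 groups), with DEPS at a false discovery rate under 5% and at least 1.5-fold. Each array is 1 mouse. In data simulated with these groups for 45141 probe sets, 39% of those changed 1.5-fold and 90% of those changed 2-fold were called, with 1 false call. The simulated noise was independent between probe sets, so false calls from variation that many probe sets of a mouse share were not covered. The number of arrays limits the precision.

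Genes named are the 30 highest and 30 lowest among DEPS whose groups do not overlap, up to 6 DEPS of each of 68 lists by their brightest probe set, all members of the clock, cold-inducible and heat shock factor lists and of the 2 lists taken from the study. Others, such as list members given with a value that did not pass and second probe sets, were named after their values were seen. Members and lists were chosen with earlier results of these data known. Alternatives were other variance priors, weights, normalizations, filters, thresholds, joined controls, covariates and leaving out each array. The covariate for fat cells is the mean of Adipoq and Fabp4, as the other markers planned for it (Cfd, Plin1 and Cidec) have no single symbol here. Figures were drawn with matplotlib 3.10.9 in Python 3.11.15.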

Additional observations from a re-analysis of the deposited data

Results flagged for a closer look

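In 7 of 175 named probe sets 1 of the 5 restricted mice lay far from the other 4 by Dixon's criterion, which chance alone meets in about 1 of 20 groups. Mouse TS73 was apart for Acvr2b (4.63), Pdxk (5.78) and Slc6a4 (5.40), and TS78 for Klf13 (7.09) and Sgk1 (9.92). TS77 was apart for the brighter probe set of Pigr (10.59) and a probe set without a symbol (10.33). The 30%DR and the protein-free effect differed, by the test of the difference itself, for Pdk4 (-2.77), both probe sets of Slc22a26 (-2.60 and -2.85), Slc22a19 (-1.19), Arntl (-1.92), Kcnt1 (0.89) and Proz (1.14) on the log2 scale. A further 3 probe sets without a symbol, with -0.82, -0.69 and -1.13, complete the 10.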

How the results depend on the processing

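The 415 probe sets called in 30%DR against SDS became 673 with no fold change minimum, 46 with treat against a 1.2-fold change, 205 with 1 probe set per gene (fewer features tested), 903 with SDS and Control arrays joined and 241 with the fat cell covariate, and 393 to 507 in the other refits of all arrays, while a fit of the 8 arrays alone called 286 of the 415. Without 1 array the count lay between 144 (SDS mouse TS56) and 416 (30%DR mouse TS77), with 241 without SDS mouse TS58. The 10 probe sets called for the difference from the protein-free diet became 29 with array weights, 4 with treat, 27 with the Gapdh covariate and 4 to 19 without 1 array (4 without SDS mouse TS56, 6 without 30%DR mouse TS76 or TS78 or 1 Control mouse, 19 without 30%DR mouse TS73). The cause of these shifts was not tested. Of 124 named DEPS, 24 were called in each alternative, and 0 changed direction in any. Where the groups do not overlap, leaving out a mouse cannot change the direction. The Gapdh difference ran from 0.15 to 0.55 without 1 array, an alternative chosen after seeing the data, and did not pass in any. No paired analysis was possible because the replicate numbers only name the mice.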
